A study of Mus musculus with 2 samples.

Results

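Interferon-responding microglia are brain-resident macrophages that carry the transcripts of several interferon-induced genes at once. They were selected on measured values: a cell needed a UMI (a unique molecular identifier, which counts 1 captured mRNA molecule) of at least 3 of the 7 genes *Ifit1*, *Ifit2*, *Ifit3*, *Isg15*, *Rsad2*, *Usp18* and *Ifi44*, called the rule genes here. It also had to be a microglia by its transcripts, with at least 0.5% of its UMIs from *P2ry12*, *Gpr34*, *Tmem119*, *Siglech*, *Fcrls* and *Olfml3* and under 1% from the neutrophil genes *S100a8* and *S100a9*. Of 14872 barcodes, 14849 had at least 200 genes with no more than 10% of UMIs from mitochondria, 8130 of these were microglia, and 57 were members. They were compared with the 7505 microglia that had no UMI of any rule gene, while 568 microglia with 1 or 2 rule genes belonged to neither set.

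The cells came from whole brains of male mice at 23 weeks, with 6 *Disc1* WT/WT animals pooled into 1 library and 6 *Disc1* LI/LI littermates, homozygous for the locus impairment allele of *Disc1*, pooled into the other. Actinomycin D, which stops transcription, was present while the tissue was dissociated in both groups, and cells low in CD45 and positive for CD11b were sorted. Each genotype was thus 1 library, so genotype and library cannot be told apart, mice cannot be separated, and no test between genotypes was made. Sequencing gave 33601957 UMIs in 7038 barcodes (median 4234) for *Disc1* WT/WT. For *Disc1* LI/LI it gave 47731571 UMIs in 7834 barcodes (median 4561.5). *Disc1* had 642 UMIs in the filtered *Disc1* WT/WT cells, or 19.1 CPM (counts per 1000000 summed UMIs), and 22 UMIs or 0.461 CPM in *Disc1* LI/LI. Members had 5 *Disc1* UMIs in the former library and 0 in the latter. Other cells passed the sort too: 3607 cells of the *Disc1* LI/LI library and 107 of the *Disc1* WT/WT library were marked by the neutrophil genes. The libraries shared 12 barcode sequences, of which 0 belonged to members.

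Type I interferons bind the IFNAR receptor and type II interferon binds the IFNGR receptor, and both signal through JAK kinases to STAT factors. STAT factors together with IRF9 bind the interferon-stimulated response element (ISRE) in the promoters of target genes. The products sense foreign nucleic acid, block viral translation and entry, attach the ubiquitin-like ISG15 to proteins, and load peptides onto MHC class I. Microglia with this program are known as a small population of the brain that has been described in ageing, injury and infection. IFIT proteins bind viral RNA, RSAD2 (viperin) makes a nucleotide that ends viral RNA chains, and USP18 removes ISG15 and dampens the receptor.

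The core of the ISRE, GAAANNGAAA or TTTCNNTTTC on the other strand, was sought in the 300 bases from 250 before to 50 after each RefSeq gene start (GRCm38.p6). Of the rule genes, 6 had such a window and 4 of them held a match, against 1079 of all 27025 genes with a window (3.99%). The stretches of 70 bases that hold the matches are shown because the rule genes were chosen as targets of this pathway, and *Ifit3b* is added because its stretch is identical to that of *Ifit3*. Sequences run 5′ to 3′ on the gene's strand, and capitals mark each match of the core. *Ifit1* lies at chr19:34640764-34640833 on the plus strand, *Ifit3* at chr19:34583360-34583429 (plus), *Ifit3b* at chr19:34607756-34607825 (plus), *Isg15* at chr4:156200851-156200920 (minus) and *Rsad2* at chr12:26456533-26456602 (minus), all upstream of the start.
Ifit1: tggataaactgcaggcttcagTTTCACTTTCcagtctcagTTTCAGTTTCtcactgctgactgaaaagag
Ifit3: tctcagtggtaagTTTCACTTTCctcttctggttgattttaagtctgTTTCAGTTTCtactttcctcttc
Ifit3b: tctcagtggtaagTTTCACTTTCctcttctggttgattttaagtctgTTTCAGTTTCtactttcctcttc
Isg15: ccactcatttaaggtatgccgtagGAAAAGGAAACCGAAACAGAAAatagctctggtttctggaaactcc
Rsad2: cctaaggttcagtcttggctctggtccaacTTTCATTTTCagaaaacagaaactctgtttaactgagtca
*Ifit1* and *Ifit3* each held 2 matches, *Rsad2* held 1, and *Isg15* held 3 that overlap. These letters were not found in the windows of *Ifit2* and *Ifi44*. A match describes the sequence and does not show binding.

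Members made up 41 of 6180 microglia in *Disc1* WT/WT, or 0.663% (exact binomial 95% interval 0.476% to 0.899%), and 16 of 1950 in *Disc1* LI/LI, or 0.821% (0.470% to 1.33%). These intervals, like all others here, cover counting error only, and they overlapped. The rule favors cells with more UMIs: members had a median of 5123 UMIs against 4239 in the comparison cells of *Disc1* WT/WT, and 4228 against 3756.5 in *Disc1* LI/LI. When all microglia were split into 4 classes of equal size at 3324, 4162.5 and 5225.75 UMIs, members were 1.21% of the *Disc1* WT/WT cells and 1.58% of the *Disc1* LI/LI cells in the class with the most UMIs. In the other 3 classes the share was 0.423% to 0.511% of *Disc1* WT/WT cells and 0.564% to 0.796% of *Disc1* LI/LI cells. When each cell was thinned to 2000 UMIs, leaving out 225 and 106 shallower cells, the rule was met by 18 of 5955 *Disc1* WT/WT cells (0.302%, 0.179% to 0.477%) and by 12 of 1844 *Disc1* LI/LI cells (0.651%, 0.337% to 1.13%). The same cells without thinning gave 0.688% and 0.868%. Whether the genotypes differ in this share was not testable with 1 library each.

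**Figure D1:**
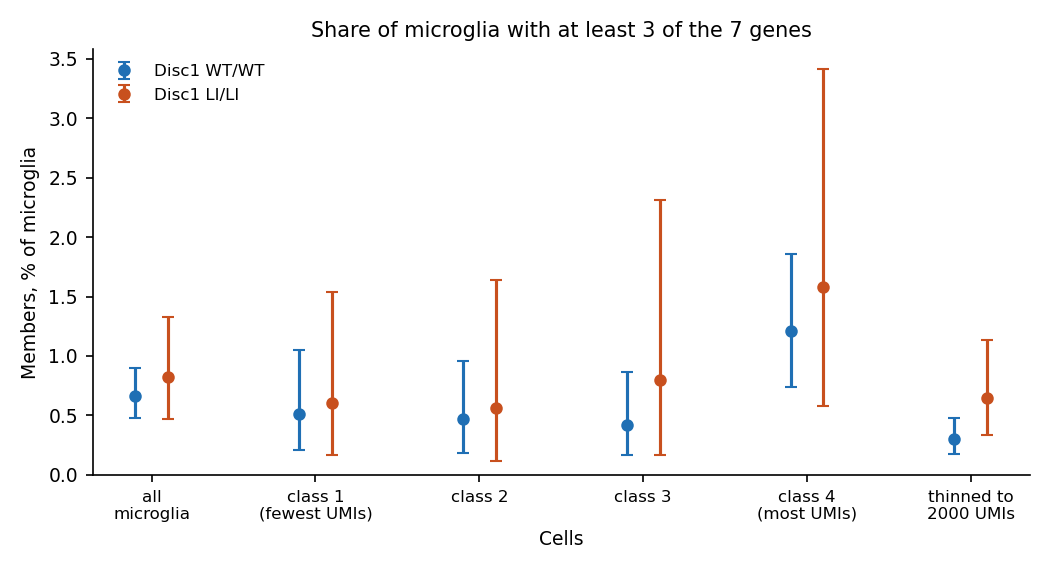
Share of microglia (percent) with at least 3 of the 7 rule genes, in all microglia, in each of 4 classes of UMIs per cell and after thinning to 2000 UMIs. Points are the 2 libraries and bars exact binomial 95% intervals; the shares are highest in the class with the most UMIs (1.21% and 1.58%), and the intervals of the libraries overlap throughout.

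Every member of the *Disc1* LI/LI library had a UMI of *Ifit3* and of *Isg15*, 2 of the genes that mark these cells. In *Disc1* WT/WT, 40 of 41 members had *Ifit3*, 33 had *Ifit2*, 30 had *Isg15* and 19 had *Ifit1*. *Usp18* was found in 25 of 41 and 11 of 16 members, *Rsad2* in 12 and 6, and *Ifi44* in 4 and 1. No member had all 7 genes. In *Disc1* WT/WT, 18 members had exactly 3 rule genes, 10 had 4, 9 had 5 and 4 had 6, and in *Disc1* LI/LI these counts were 4, 4, 5 and 3. Free RNA can put single UMIs into cells that do not express a gene, and its part was not tested. In all microglia *Ifit3* had a UMI in 3.16% and 2.87% of cells (*Disc1* WT/WT and *Disc1* LI/LI). The shares were 2.80% and 1.77% of neutrophil-marked cells, whose median depths were 4235 and 4128 UMIs. Of these neutrophil-marked cells 3 of 107 and 55 of 3607 had at least 3 rule genes themselves. Their shares therefore do not separate free RNA from expression. *Isg15* was found in more of the neutrophil-marked cells (11.2% and 12.3%) than of the microglia (3.06% and 3.90%), and so was *Rsad2* (7.48% and 6.76% against 0.388% and 0.667%). *Ifit1*, *Ifit2* and *Usp18* also had the higher share in neutrophil-marked cells of both libraries, at 1.03% to 2.80% against 0.680% to 1.52% of microglia. In *Disc1* WT/WT these were 3, 2 and 2 of 107 cells. For each of these genes the intervals of both sets of cells overlapped in both libraries. *Ifi44* had a UMI in 0 and 2 neutrophil-marked cells.

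Each rule gene was also read in cells chosen by the other 6. *Ifit3* reached 1292 CPM (exact Poisson 95% interval 1112 to 1493) in the 24 *Disc1* WT/WT cells with at least 3 of the others, of which 23 had a UMI, and 4.80 CPM in the 5823 cells with none of them. In *Disc1* LI/LI the values were 1516 CPM (1222 to 1860) in 12 cells, all with a UMI, and 5.04 CPM. The log2 ratio was 8.07 and 8.23, and the intervals of chosen and other cells lay far apart in both libraries. *Ifit2* had log2 ratios of 8.63 and 8.48, *Ifit1* of 7.90 and 7.52, *Rsad2* of 8.09 and 6.24, *Usp18* of 6.26 and 6.77 and *Isg15* of 5.48 and 5.86. *Ifi44* was the exception in depth: 8 UMIs in 2 of 39 chosen *Disc1* WT/WT cells and 1 UMI in 16 *Disc1* LI/LI cells. Against all microglia not chosen, in place of those with none of the other 6, the log2 ratio of *Ifit3* was 7.23 and 7.48.

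**Figure D2:**
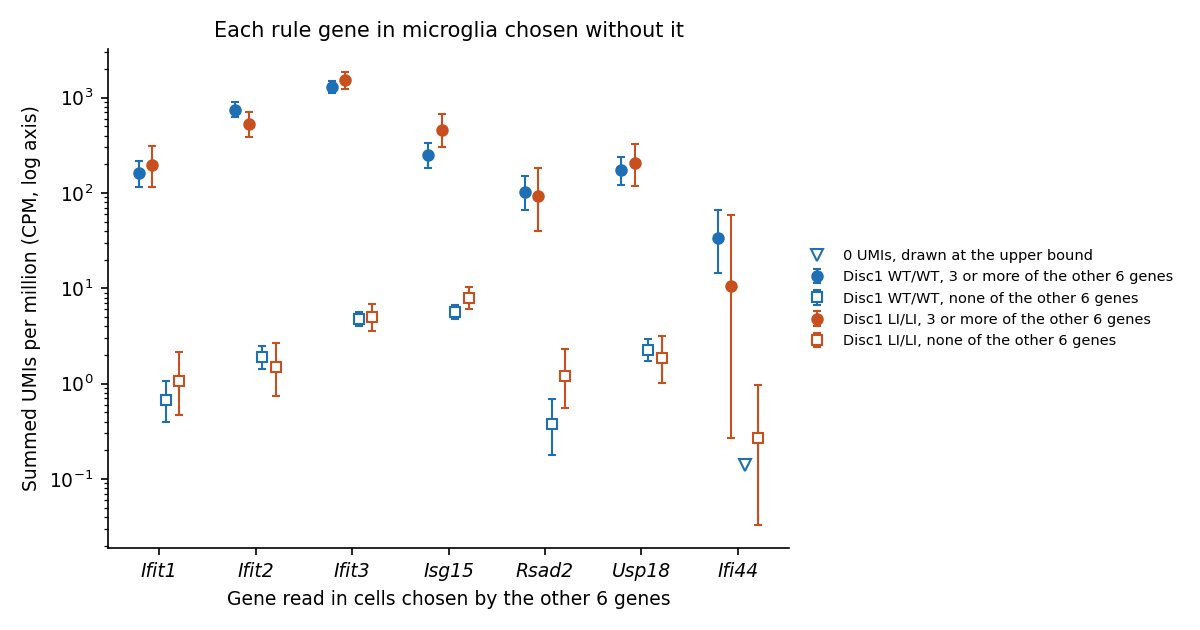
Summed CPM (log axis) of each rule gene in cells with at least 3 of the other 6 rule genes (filled circles) and in cells with none of them (open squares), for both libraries, with exact Poisson 95% intervals. *Ifit3* stands at 1292 and 1516 CPM in the chosen cells and at 4.80 and 5.04 CPM in the others, while *Ifi44* rests on 8 UMIs and 1 UMI.

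At the threshold itself, 46 *Disc1* WT/WT and 9 *Disc1* LI/LI microglia had 2 rule genes and stayed just outside, and 18 and 4 had 3 and were just inside. The summed level of the 5 interferon lists outside the rule (antiviral effectors, ISG15 and ubiquitin machinery, nucleic acid sensors, STAT and IRF factors, and guanylate-binding and immunity-related GTPases) was 8792 CPM just outside and 10866 CPM just inside in *Disc1* WT/WT. In *Disc1* LI/LI it was 13608 and 11992 CPM, so that there the cells just outside were the higher ones. Cells with 0 rule genes had 4646 and 4591 CPM, cells with 1 had 5440 and 5590, and cells with 5 or more had 23724 and 21471. The chemokine *Ccl12* went from 82.3 CPM in *Disc1* WT/WT cells with no rule gene to 424 with 3, 1259 with 4 and 4528 with 5 or more, and in *Disc1* LI/LI from 98.8 to 147, 3145 and 2285 CPM. *C1qa*, a subunit gene of complement C1q that microglia hold at a high level, lay between 9902 and 10604 CPM over these classes in *Disc1* WT/WT cells, and its range in *Disc1* LI/LI cells was 11288 to 14102 CPM.

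**Figure D3:**
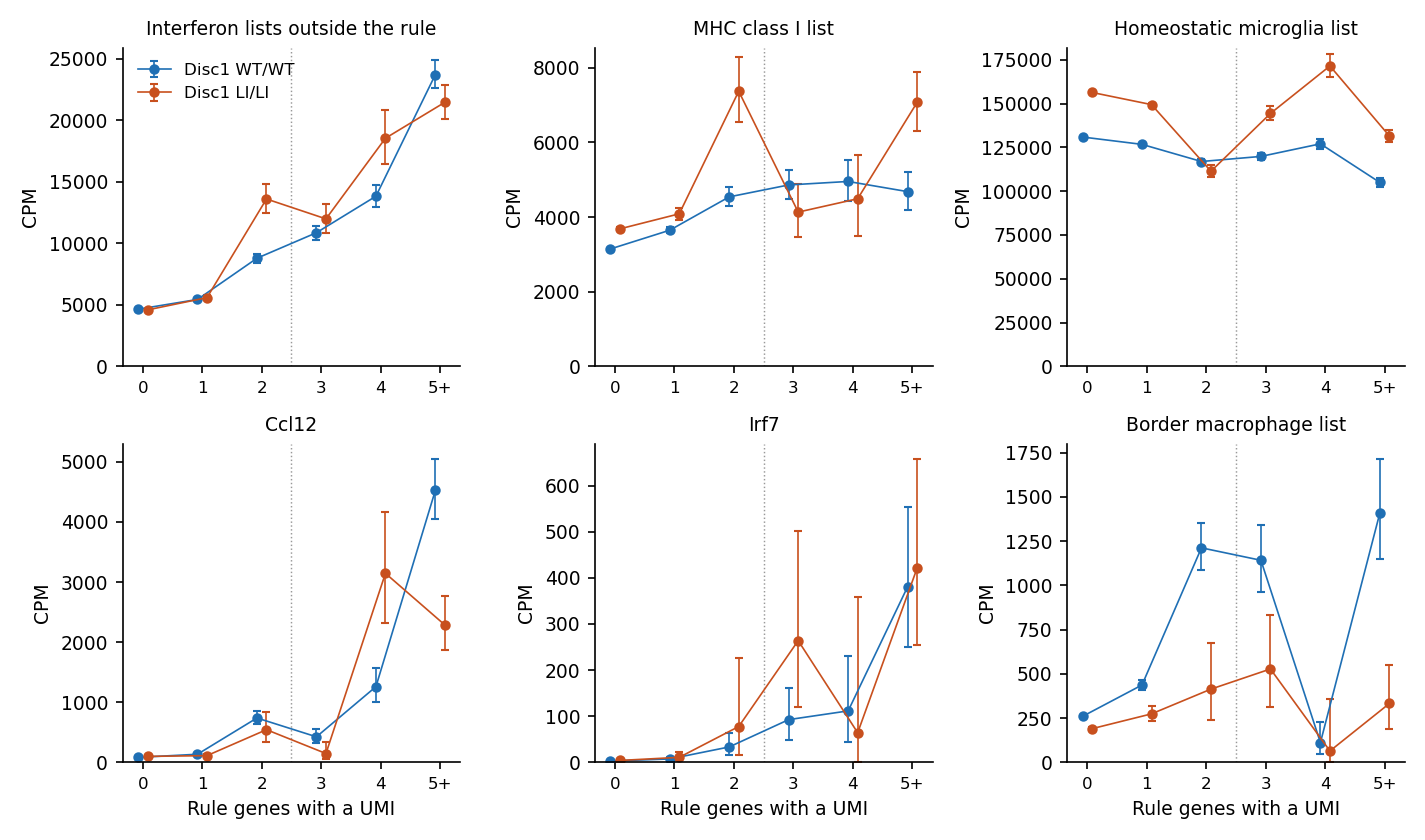
Summed CPM by the number of rule genes with a UMI, for 3 gene lists, *Ccl12*, *Irf7* and the border macrophage list, in both libraries; bars are exact Poisson 95% intervals and the dotted line is the threshold of the rule. The interferon lists outside the rule go from 4646 and 4591 CPM at 0 rule genes to 23724 and 21471 CPM at 5 or more, while the homeostatic list shows no such course.

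Within the members the interferon lists took 0.40% to 4.90% of a cell's UMIs in *Disc1* WT/WT (median 1.52%) and 0.51% to 3.35% in *Disc1* LI/LI (median 2.03%), against medians of 0.45% and 0.44% in the comparison cells. The ranges overlapped: comparison cells reached 2.16% and 2.40%. Only 4 of 5707 comparison cells in *Disc1* WT/WT, and 1 of 1798 in the other library, were at or above their library's member median. The member with the highest share in *Disc1* WT/WT had 3082 UMIs, of which 151 came from these lists, and the lowest had 3473 UMIs and 14 of these. *Ccl12*, a ligand of CCR2 that recruits monocytes, was uneven: 32 of 41 and 12 of 16 members had it, and a single cell held 78 of the 455 UMIs in *Disc1* WT/WT (17.1%) and 48 of the 157 UMIs in *Disc1* LI/LI (30.6%).

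**Figure D4:**
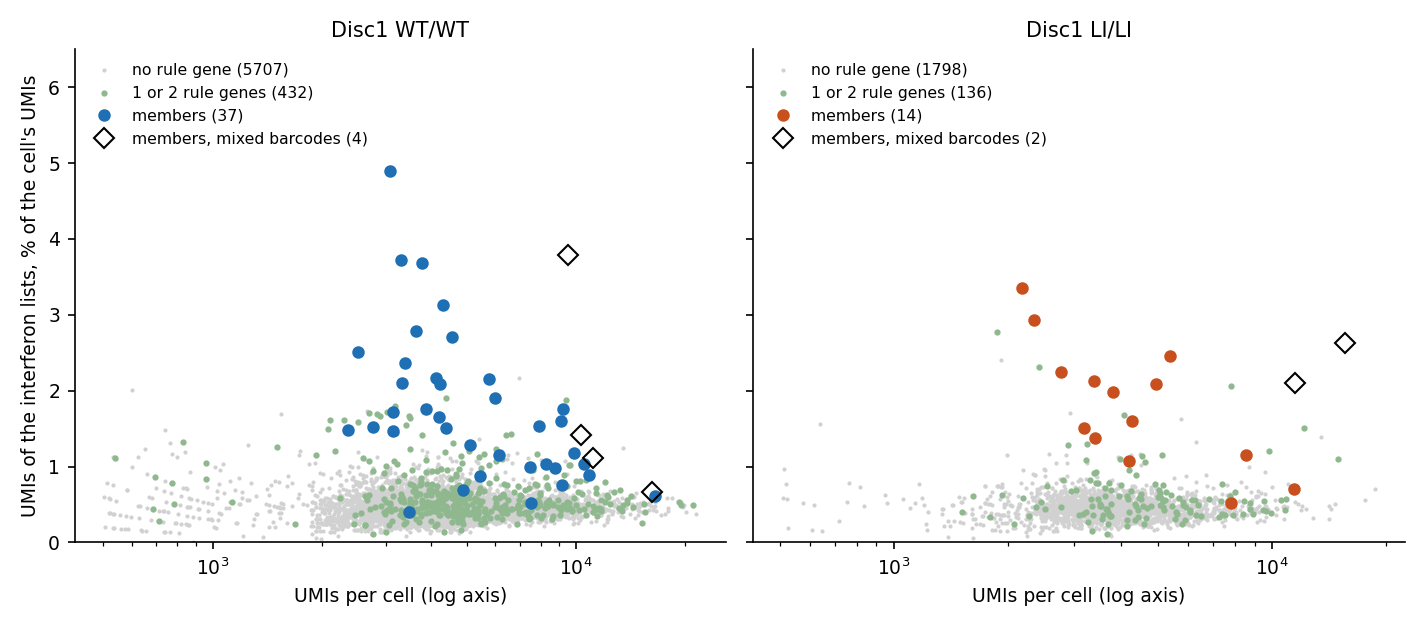
UMIs of the 5 interferon lists as a percent of each cell's UMIs against UMIs per cell (log axis) for every microglia of both libraries. Members (filled circles) have medians of 1.52% and 2.03% and lie mostly above the microglia without a rule gene, and diamonds mark the 4 and 2 mixed barcodes, which lie at high UMI counts.

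Some members also carried transcripts of other myeloid cells, and this bears on several values below. By a threshold of 10 UMIs, chosen after the values were seen, 4 of 41 *Disc1* WT/WT members (9.76%) and 2 of 16 *Disc1* LI/LI members (12.5%) were mixed barcodes, against 2.52% and 2.56% of comparison cells. In *Disc1* WT/WT, 2 of them held 97 and 108 UMIs of the border macrophage markers and 2 held 418 and 585 UMIs of *H2-Aa*, *H2-Ab1*, *H2-Eb1* and *Cd74*. In *Disc1* LI/LI both held monocyte markers, with 113 and 89 UMIs. All 30 and 14 UMIs of *F13a1*, a gene of monocytes and border macrophages, and all 54 UMIs of the monocyte gene *Ly6c2* lay in these barcodes. These 6 had 9509 to 16211 UMIs. A fixed number of UMIs is reached more easily by deeper cells, and the shares of mixed barcodes were not matched for depth. The member with the most UMIs (16504) was not mixed, and it held all 12 UMIs of *Mki67*, a gene of dividing cells, that *Disc1* WT/WT members had. Doublets were not removed, and whether these barcodes are doublets was not tested.

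Over the whole lists, border macrophage markers summed to 969 CPM in *Disc1* WT/WT members (11 of 12 markers with a UMI, *Pf4* the most abundant, *Clec4n* at 0) against 260 CPM in comparison cells, and to 359 against 190 CPM in *Disc1* LI/LI (5 of 12, *Stab1* the most abundant). Monocyte markers summed to 129 against 29.3 CPM in *Disc1* WT/WT (2 of 12, *Ly6c2* at 0) and to 2269 against 195 CPM in *Disc1* LI/LI (8 of 12, *Plac8* the most abundant). Without the mixed barcodes the border macrophage list stood at 134 against 175 CPM and 237 against 161 CPM, and the monocyte list at 4.63 against 13.5 CPM and 192 against 169 CPM. Neutrophil markers were at 163 against 185 CPM and at 1266 against 1437 CPM, with *S100a8* the most abundant in *Disc1* LI/LI and *Csf3r* in *Disc1* WT/WT. Of the T and NK cell markers 0 of 12 were found in *Disc1* WT/WT and 1 of 12 (*Klrk1*) in *Disc1* LI/LI, with *Cd3e*, *Cd3d* and *Trac* at 0. Erythroid markers had 1 UMI in each library's members. Neural and vascular markers summed to 72.2 and 21.1 CPM and B cell markers to 304 and 295 CPM, mostly *Ighm*, with *Ms4a1* and *Pax5* at 0. The dendritic list stood at 938 and 1013 CPM, nearly all from *Bst2*, which is also an interferon-induced gene, while *Flt3*, *Xcr1* and *Zbtb46* were at 0.

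Members carried the transcripts of microglia also in genes that the rule did not use. Of the 18 genes of the homeostatic list 12 were not among the markers of the rule. All 12 were measured and 0 of them passed 2-fold in both libraries in either direction. Their median log2 ratios of members over comparison cells were -0.10 in the *Disc1* WT/WT library and -0.18 in the *Disc1* LI/LI library. Of the 12, 9 were lower in members of both libraries, beside 32.1% of all measured genes. *C1qa* stood at 10268 against 10481 CPM and 12229 against 14102 CPM. Leaving out the mixed barcodes, 6 of the 12 were lower in members of both libraries, and *C1qa* in *Disc1* LI/LI stood at 15011 against 14307 CPM. The share of UMIs from the 6 microglia markers of the rule was lower in members (median 0.99% against 1.18%, and 0.84% against 1.10%). Disease-associated genes did not pass 2-fold either (0 of 9 measured), *Trem2*, a lipid receptor of microglia, with log2 ratios of -0.07 and -0.21.

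Outside the rule 3219 genes reached 50 CPM in members or comparison cells of each library, which corresponds to 13.2 UMIs in *Disc1* WT/WT and 4.74 UMIs in *Disc1* LI/LI members. A gene was said to pass when its summed CPM differed at least 2-fold in the same direction in both libraries, which is a description of cells selected on related transcripts and no test. In members 74 genes were higher (2.3% of those measured) and 8 were lower (0.249%). Of the 74, 44 belonged to the interferon lists, 6 to other lists and 24 to none. Of the 108 listed interferon-induced genes in the files 58 were measured and 44 of these passed, with median log2 ratios of 2.20 and 2.42 against -0.04 and -0.03 over all measured genes. Of the 58, 40 were measured in at least 1 library only through their level in members, below called measured only through members. In such a library they had to be higher in members, though not by 2-fold. Of the 18 that comparison cells also held at 50 CPM or more, 5 passed, and their medians were 0.53 and 0.73, beside 13 of 2939 genes of this kind in all and medians of -0.06 and -0.08. Over all 108, whether measured or not, 85 had a higher CPM in members in both libraries and 5 a lower one, and 6 had no UMI in at least 1 library. Over the 14259 genes outside the rule with a UMI in both libraries, 2099 (14.7%) were higher in both and 6482 (45.5%) lower, and over the 3219 measured genes 793 (24.6%) were higher and 1034 (32.1%) lower.

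**Figure D5:**
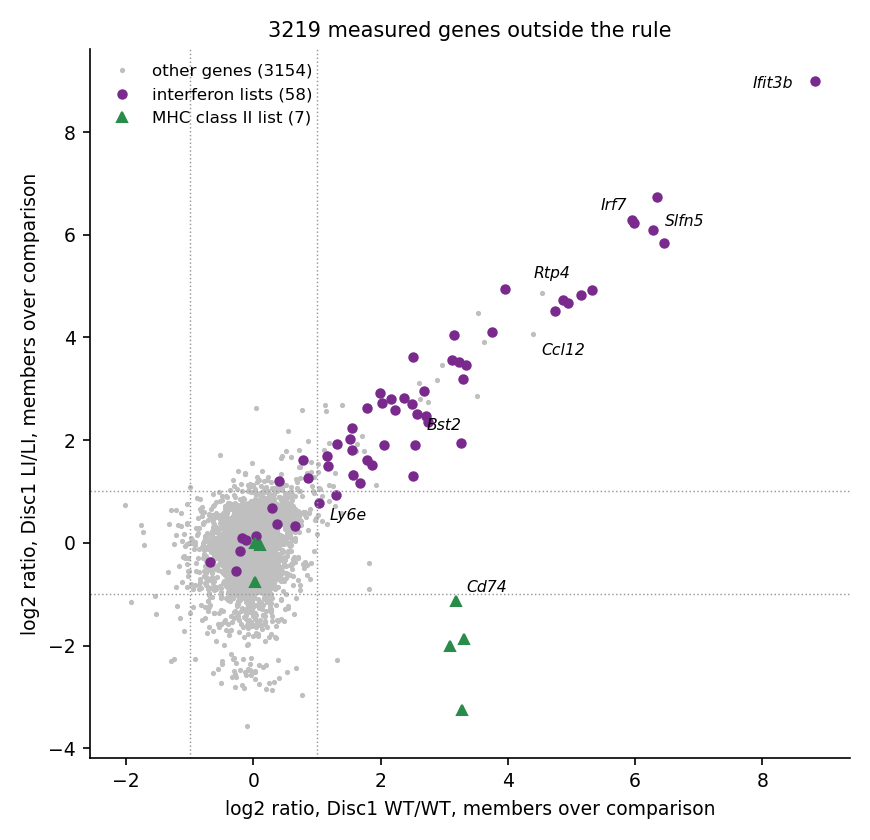
Log2 ratio of summed CPM, members over comparison cells, in *Disc1* WT/WT (x axis) and *Disc1* LI/LI (y axis) for 3219 genes outside the rule; dotted lines mark 2-fold. The 58 interferon-list genes (purple) extend along the diagonal to *Ifit3b* at 8.83 and 8.99, and 4 of the 7 MHC class II genes (triangles) lie above 3 in *Disc1* WT/WT and below -1 in *Disc1* LI/LI.

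No ligand was found. All 21 interferon genes of the list, among them *Ifnb1*, *Ifng* and the *Ifna* genes, had 0 UMIs in members of both libraries, where 3 UMIs would be 11.4 and 31.7 CPM. Of the receptors, kinases and inhibitors of the pathway 0 of 6 measured genes passed 2-fold in both libraries, with medians of -0.10 and -0.56. *Ifnar2*, a chain of the type I receptor, stood at 380 against 389 CPM in *Disc1* WT/WT and 433 against 405 CPM in *Disc1* LI/LI. *Ifngr1*, the ligand-binding chain of the type II receptor, stood at 1219 against 1316 CPM and 644 against 1110 CPM. *Ifnar1* had 12 UMIs and 0 UMIs in members.

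Among the factors that carry the signal, 5 of 9 measured STAT and IRF genes passed, all higher in members. These 5 were measured only through their level in members, and of the 4 that comparison cells also held at 50 CPM or more 0 passed, with medians of 0.17 and 0.25. *Stat2* had log2 ratios of 2.51 and 3.61 and *Irf9* of 1.57 and 1.33. *Irf7*, the factor that amplifies the type I response, stood at 175 against 2.77 CPM and 306 against 4.06 CPM, log2 ratios of 5.98 (5.41 to 6.53) and 6.24 (5.45 to 7.02). *Irf1* also passed (1.15 and 1.70). *Irf8*, which sets microglial identity, did not pass (406 against 393 CPM and 401 against 365 CPM), nor did *Irf2*, *Irf5* and *Stat3*.

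Of the antiviral effectors 22 of 27 measured genes passed, all higher in members, but 20 of the 27 were measured only through members and 3 of the other 7 passed. *Ifit3b* stood at 171 against 0.37 CPM in *Disc1* WT/WT and at 137 against 0.27 CPM in *Disc1* LI/LI. Its reads may be shared with its near copy *Ifit3*, so the split between the pair is uncertain. *Oasl2*, of the oligoadenylate synthetase family, stood at 137 against 1.69 CPM and 200.5 against 1.89 CPM, log2 ratios of 6.34 (5.67 to 7.01) and 6.73 (5.65 to 7.83). *Slfn5* of the Schlafen family stood at 213 against 2.74 CPM and 285 against 4.19 CPM. *Bst2* (tetherin), which holds budding virions at the cell surface, had log2 ratios of 2.57 (2.37 to 2.76) and 2.52 (2.19 to 2.83), at 900.3 against 152 CPM and 949.6 against 166 CPM. *Ifi27l2a*, a mitochondrial protein gene, had log2 ratios of 3.76 and 4.11 and *Xaf1*, linked to cell death, 3.24 and 3.53.

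*Ifitm3*, which blocks the fusion of viruses in endosomes, stood at 783 against 29.1 CPM in *Disc1* WT/WT and at 2226 against 96.7 CPM in *Disc1* LI/LI, log2 ratios of 4.75 and 4.52. The mixed barcodes held 48 of its 206 UMIs and 154 of its 211 UMIs. Without them it stood at 731 against 18.6 CPM and 843 against 68.6 CPM, log2 ratios of 5.30 and 3.62. *Ms4a4c*, a membrane protein gene, passed in members (3.96 and 4.93), but 18 of its 20 UMIs in *Disc1* LI/LI lay in the mixed barcodes. The effectors that were measured and did not pass were *Ly6e* (log2 ratios of 1.03 and 0.77), *Apobec3* (which passed without the mixed barcodes, 1.06 and 1.30), *Shisa5*, *Zc3hav1* and *Ifi27*, of which the last was lower in members (-0.67 and -0.36). *Oas1b*, *Mx1* and *Mx2* were not analysed here.

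All 8 measured genes of the ISG15 and ubiquitin machinery passed, 6 of them measured only through members (*Parp14* in *Disc1* LI/LI alone). *Parp14*, an ADP-ribosyltransferase, stood at 414 against 73.2 CPM and 306 against 47.1 CPM, with 95% intervals of its log2 ratio of 2.21 to 2.78 and 2.10 to 3.25. *Herc6*, the E3 ligase that attaches ISG15 in mice, stood at 236 against 34.9 CPM and 127 against 24.6 CPM. *Trim30a* had ratios of 2.05 and 1.91, *Trim30d* of 1.56 and 2.23, and *Trim25*, *Parp12*, *Parp9* and *Dtx3l* lay between 1.17 and 2.63. *Dtx3l* rested on 8 UMIs in *Disc1* LI/LI members, and its interval there included 0 (-0.06 to 2.16).

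Of the nucleic acid sensors 7 of 11 measured genes were higher in members, 5 of them of the Ifi200 family of DNA-binding proteins. The 7 were measured only through members, and 0 of the 4 that comparison cells also held at that level passed, with medians of -0.14 and 0.07. *Ifi204* stood at 312 against 8.81 CPM and 243 against 8.52 CPM, log2 ratios of 5.14 and 4.83, and *Ifi209* at 281 against 9.11 CPM and 253 against 9.88 CPM. *Ifi203* also passed (5.33 and 4.93), but without the mixed barcodes it had 0 UMIs in members of both libraries. *Zbp1*, a sensor of Z-form nucleic acid, had ratios of 6.45 and 5.84, from 25 and 11 UMIs, and without the mixed barcodes it had 18 and 3 UMIs and was no longer measured. *Ddx58*, which encodes the RNA sensor RIG-I, had 2.55 (2.10 to 2.97) and 1.90 (0.75 to 2.86). *Tmem173* (STING; 217 against 251 CPM and 222 against 248 CPM), *Tlr7*, *Tlr3* and *Aim2* did not pass. Of the guanylate-binding and immunity-related GTPases, which attack the membranes of vacuoles that hold pathogens, 17 were listed and 3 measured. *Irgm1* (2.00 and 2.92) and *Igtp* (1.78 and 1.60) passed, both measured only through members, and *Gbp7* (1.31 and 0.94), the 1 that comparison cells also held at 50 CPM or more, did not, though it passed once the mixed barcodes were left out (1.29 and 1.17). *Iigp1* had 43 UMIs in *Disc1* WT/WT members, of which 14 lay outside the mixed barcodes, while 3 UMIs in *Disc1* LI/LI members were too few for it to be measured.

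Of 13 measured genes of MHC class I presentation 2 passed, *Tap1* (log2 ratios of 1.75 and 1.79), a chain of the peptide transporter, and *H2-T23* (1.05 and 1.04), and 11 of 13 had a higher CPM in members in both libraries, beside 24.6% of all measured genes, with medians of 0.59 and 0.69. Without the mixed barcodes 10 of these 13 were higher in both, the exceptions being *Tap2* (0.36 and -1.07), *Psme2* (0.63 and -0.34) and *H2-M3* (-0.04 and 0.22). Over the 12 that comparison cells also held at 50 CPM or more the medians were 0.58 and 0.68, beside the 0.53 and 0.73 of interferon-list genes measured in that way. *H2-T23* no longer passed without the mixed barcodes (1.03 and 0.39). *B2m*, the light chain, stood at 1546 against 1058 CPM and 1340 against 1208 CPM, log2 ratios of 0.55 (0.40 to 0.69) and 0.15 (-0.11 to 0.40). *H2-D1* stood at 672 against 440 CPM and 929 against 594 CPM and *H2-K1* at 657 against 356 CPM and 728 against 485 CPM, none of them past 2-fold. *Psmb9*, an immunoproteasome subunit, had ratios of 0.73 and 1.47.

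Of 7 measured MHC class II genes 0 passed, and with all cells 4 of them had log2 ratios above 3 in *Disc1* WT/WT and below -1 in the other library. *Cd74*, the invariant chain, stood at 1858 against 203 CPM in *Disc1* WT/WT and at 179 against 392 CPM in *Disc1* LI/LI. In *Disc1* WT/WT, 483 of its 489 UMIs lay in 2 of the mixed barcodes. Without the mixed barcodes it stood at 27.8 against 36.4 CPM and 207 against 59.5 CPM, so that both signs turned. Of the 14 UMIs left in *Disc1* LI/LI members, 8 lay in 1 cell, which had 9 MHC class II UMIs and so stayed just under the threshold for mixed barcodes. Without this cell too, *Cd74* stood at 96.4 against 59.5 CPM, a log2 ratio of 0.70 (-0.76 to 1.83).

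Chemokines gave 2 genes of 7 measured, *Ccl12* and *Ccl2*, which both attract cells through CCR2. *Ccl2* was measured only through members, and of the 6 that comparison cells also held at that level 1 passed. *Ccl12* stood at 1728 against 82.3 CPM in *Disc1* WT/WT and 1657 against 98.8 CPM in *Disc1* LI/LI, log2 ratios of 4.39 (4.24 to 4.54) and 4.07 (3.81 to 4.32). The mixed barcodes held 83 of its 455 and 1 of its 157 UMIs, and without them the ratios were 4.47 and 4.63. *Ccl2* stood at 110 against 18.1 CPM (29 UMIs) and 158 against 18.3 CPM (15 UMIs). *Ccl4* was higher in *Disc1* WT/WT members (391 against 111 CPM) and lower in *Disc1* LI/LI members (148 against 275 CPM). *Cxcl10*, a T cell attractant, had 4 and 12 UMIs and was not measured in both libraries, and all 12 of *Disc1* LI/LI lay in the mixed barcodes.

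Inflammatory cytokines did not pass (0 of 6 measured, medians of 0.53 and -0.15), *Il1a* with ratios of 0.02 and 0.15 and *Nfkbia*, the inhibitor of NF-κB, with 0.60 and -0.43. Immediate early genes gave 0 of 9, with medians of 0.28 and -0.71. *Jun* stood at 961 against 712 CPM in *Disc1* WT/WT and at 359 against 774 CPM in *Disc1* LI/LI. Of the cell cycle list only *Stmn1* was measured, and it passed (1.92 and 1.12). It no longer passed without the mixed barcodes (2.18 and 0.68), and in *Disc1* WT/WT its ratio was -1.37 when the microglia markers had to make up 1% of UMIs and -0.96 after thinning.

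Outside all lists, ranked by the smaller log2 ratio of the 2 libraries, the 10 highest genes were *Rtp4*, *Fgl2*, *Trim30c*, *Cybb*, *Gm4951*, *Dck*, *Sdc3*, *Trim56*, *Nampt* and *Trim12c*. All 10 were measured only through members, since comparison cells of both libraries held them at no more than 38.0 CPM. *Rtp4*, a receptor chaperone gene, stood at 205 against 8.85 CPM in *Disc1* WT/WT and 317 against 10.8 CPM in *Disc1* LI/LI, log2 ratios of 4.53 and 4.87. *Fgl2*, a fibrinogen-like protein gene, had 3.63 and 3.91 and *Trim30c* 2.97 and 3.46. *Cybb*, the catalytic chain of the phagocyte oxidase, had 2.89 and 3.18, but 14 of its 16 UMIs in each library lay in mixed barcodes. The 8 lower genes were *Scfd1*, *Zfp830*, *Mtss1*, *Acads*, *Zfp397*, *Dok1*, *Commd4* and *Khdrbs3*. They had 4 to 9 UMIs in *Disc1* WT/WT and 1 to 4 UMIs in *Disc1* LI/LI members.

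Without the mixed barcodes 64 genes were higher, of which 57 were among the 74 and 41 belonged to the interferon lists. The 17 that no longer passed or were no longer measured included 5 of the interferon lists (*Sp100*, *Ifi203*, *Zbp1*, *Epsti1* and *Ms4a4c*) and 12 others, among them *F13a1*, *Cybb*, *Dck*, *H2-T23*, *Ms4a6c* and *Stmn1*. The interferon lists together stood at 14900 against 4599 CPM in *Disc1* WT/WT and 14996 against 4495 CPM in *Disc1* LI/LI in this setting, and at 15036 against 4646 CPM and 17579 against 4591 CPM with all cells.

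The promoters of the higher genes were read for the same ISRE core. Of all 74 higher genes outside the rule, 61 had a window and 21 of these (34.4%) held a match. Of the 44 interferon-list genes that passed, 36 had a window and 16 of these (44.4%) held a match, against 95 of 2510 measured genes that did not pass (3.78%). Of the listed interferon genes that did not pass or were not measured, 26 of 49 (53.1%) held one. *Stat2* and *Bst2* are shown because a factor of the pathway and an effector carry the element in their own promoters. *Stat2* lies at chr10:128270248-128270317 (plus strand, 1 match) and *Bst2* at chr8:71537560-71537629 (minus strand, 2 overlapping matches), both upstream of the start.
Stat2: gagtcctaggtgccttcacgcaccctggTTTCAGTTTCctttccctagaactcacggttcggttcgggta
Bst2: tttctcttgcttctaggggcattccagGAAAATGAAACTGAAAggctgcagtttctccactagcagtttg
No match was found in the windows of *Irf7*, *Oasl2*, *Irf9*, *Xaf1* and *Ccl12*.

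Between the genotypes, members were compared over the 3141 measured genes with at least 50 CPM in members of either library. With 41 and 16 cells, 140 genes (4.46%) were at least 2-fold higher and 467 (14.9%) at least 2-fold lower in *Disc1* LI/LI, where 3 UMIs are 31.7 CPM. The part of cell number in this split was not tested. Of the 58 interferon-list genes 5 were higher and 2 lower, with a median log2 ratio of 0.03 in members and -0.09 in comparison cells. *Ccl12* had a ratio of -0.06, *Bst2* of 0.08 and *Irf7* of 0.81. Without the mixed barcodes these ratios were 0.42 (0.14 to 0.70), 0.30 (-0.11 to 0.70) and 0.44 (-0.47 to 1.29). *Ifitm3* stood at 2226 against 783 CPM, a log2 ratio of 1.51 (1.22 to 1.79), and comparison cells also had more of it in *Disc1* LI/LI (1.73). Without the mixed barcodes the ratio in members was 0.20 (-0.26 to 0.65). In that setting 0 of the 5 higher genes were past 2-fold with a UMI in members: *Shisa5* had 0.81, *Ifi27l2a* 0.55 and *Ms4a4c* -0.32, and *Ifi203* had 0 UMIs. Of the 2 lower genes *Sp100* had -1.91 and was no longer measured, and *Znfx1* had -0.41. Of the 54 interferon-list genes measured then, 2 others were higher, *Parp12* (1.23, -0.04 to 2.45) and *Ly6a* (1.14, -0.12 to 2.33), and *Rnf213* was lower (-1.05, -2.76 to 0.32), beside 4.1% higher and 14.2% lower over 3145 genes outside the rule. *Ifih1*, with 3 UMIs in *Disc1* LI/LI members, was not measured in this setting and had -1.74 (-4.09 to -0.06). *Jun* was lower in *Disc1* LI/LI members (-1.42, -1.98 to -0.90) and did not pass in comparison cells (0.12), and the difference of these ratios was not tested. Its ratio in members was -1.05 (-1.66 to -0.50) without the mixed barcodes. All of these values compare 1 library with 1 library.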

How the data were processed

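Transcripts of sorted single cells were read from 2 libraries, 1 per genotype, each of 6 pooled mice. The values deposited by the authors are UMI counts for each gene in each barcode, made with Cell Ranger 6.1.2 on mm10 (file headers and submitters' notes, which also name STAR and Seurat 3.0.1), without normalization, for 32285 genes. The members and the 24 gene lists were chosen with earlier results of these data known. From the deposited counts, cells were filtered and chosen by the stated rule, and UMIs were summed over cells and scaled to CPM (counts per 1000000 summed UMIs). Depths are given with each set of cells. A log2 ratio has an exact conditional binomial 95% interval, a CPM an exact Poisson interval and a share a Clopper-Pearson interval, all for counting error only. A count of 0 was set to 3 counts in ratios. No test was run, since cells are not replicates and each genotype is 1 library. Doublets were not removed, since no caller was run.

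Genes named were the 7 rule genes, up to 4 genes of highest CPM per list, interferon-list genes past 2-fold, and the 10 highest and 10 lowest outside the lists (8 were lower). Further genes, such as *Ms4a6c*, *Ifi203*, *Lyz2* and those of mixed barcodes, were picked once their values were known. The alternatives were other cell filters, limits and numbers of rule genes, thinning to 2000 UMIs, high-UMI cells left out, cells with markers of other types left out, TMM factors (edgeR 4.0.16, R 4.3.3), the mean over cells, other CPM minimums and 1.5-fold. Leaving out mixed barcodes was added after the data were examined. Gene positions came from GENCODE M21 (mm10) and promoters from RefSeq (GRCm38.p6). The ratio and its interval were tried on simulated Poisson counts, which hold only the counting error that the interval assumes. These counts have no spread between cells, so they cannot show how the interval fares with it. The scripts ran in Python 3.11.15 with pandas 2.3.3, scipy 1.17.1 and numpy 2.4.6, and plots were drawn with matplotlib 3.10.9.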

Additional observations from a re-analysis of the deposited data

Results flagged for a closer look

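Cells outside the microglia limits also had UMIs of at least 3 rule genes, which the comparisons above did not use. Among cells with neither marker set they were 29 of 733 (3.96%) in the *Disc1* WT/WT library and 109 of 2199 (4.96%) in the *Disc1* LI/LI library, above the 0.409% and 0.136% that 3 cells would make. Among neutrophil-marked cells of *Disc1* LI/LI they were 55 of 3607 (1.52%), above 0.0832%. Among those of *Disc1* WT/WT they were 3 of 107 (2.80%, 0.582% to 7.98%). The median depths of all cells in these classes were, in the same order, 3642, 6403, 4128 and 4235 UMIs.

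With all cells, MHC class II genes pointed opposite ways in the 2 libraries, and the difference was not tested. The median log2 ratio of members over comparison cells was 3.10 for the *Disc1* WT/WT library and -1.13 for that of *Disc1* LI/LI. Without the mixed barcodes, among comparison cells too, 3 of these genes were still measured, with medians of -0.14 and -0.18. *Cd74* had 3.19 and -1.13, *H2-Aa* 3.32 and -1.87 (0 UMIs in *Disc1* LI/LI members, set to 3 counts), and *H2-Eb1* 3.28 and -3.25. In *Disc1* WT/WT, 193 of 197 *H2-Aa* UMIs lay in 2 barcodes. In cells that were not mixed *Cd74* had -0.39 and 1.80 (0.70 without the 1 cell that held 8 of its 14 UMIs there), *H2-Ab1* had 0.088 and 0.56, and *H2-Aa* and *H2-Eb1* had 0 UMIs in *Disc1* LI/LI members.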

How the results depend on the processing

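No paired analysis was possible because each genotype was 1 library without a replicate number, and no replicate could be left out. Over the alternatives the median log2 ratio of the interferon lists ranged from 1.79 to 2.75 in the *Disc1* WT/WT library, and from 2.01 to 3.76 in the *Disc1* LI/LI library. It reached 2.69 with at least 4 rule genes and 2.75 with thinning in *Disc1* WT/WT. Leaving out cells with UMIs of 2 markers of another type gave 3.76 in *Disc1* LI/LI, where it left 1 member and moved the median of all genes to 2.70, with 21 higher interferon-list genes and 0 lower genes. The member share in *Disc1* WT/WT was 0.416% when M, the percent of UMIs from the 6 microglia markers, had to reach 1, 1.41% with at least 2 rule genes, 0.372% with at least 4 and 0.302% with thinning, and in *Disc1* LI/LI 0.423% with M of at least 1. The 74 higher genes became 175 with thinning, 134 at 20 CPM, 45 at 100 CPM and 120 at 1.5-fold. The 8 lower genes became 22 with M of at least 1, 2 with at least 2 rule genes, 28 with at least 4, 37 with thinning, 23 without the 5% of cells richest in UMIs, 14 with TMM factors, 18 with the mean over cells, 44 at 20 CPM, 0 at 100 CPM and 64 at 1.5-fold. TMM factors moved the median of all genes to -0.17 and -0.15. Genes higher in *Disc1* LI/LI members (140) became 571 with thinning, 226 with TMM factors, 430 at 20 CPM and 49 at 100 CPM, and lower genes (467) became 1191 and 165 at these minimums. The alternatives were followed for 70 results of named genes, which do not cover every gene named here. Among these, directions turned in *Disc1* WT/WT for *Stmn1* (-1.37 with M of at least 1, -0.96 with thinning) and, with thinning, for *Scfd1* (0.35), *Zfp830* (1.07) and *Mtss1* (0.10). Turned means here that a ratio of at least 2-fold, with an interval that left out 0, changed its sign. The MHC class II median turned in *Disc1* WT/WT to -0.20 with M of at least 1, -1.33 with at least 4 rule genes, -0.020 with thinning, -1.10 without the cells richest in UMIs, -0.22 without cells with other markers and -0.14 without mixed barcodes. In *Disc1* LI/LI it turned to 0.043 with M of at least 1, 1.37 with at least 2 rule genes and 1.48 without cells with other markers. The cause of these moves was not tested. Of the 980 values that the 70 results of named genes took under alternatives, 802 stayed within their counting interval, 173 left it, and 5 turned. Changes of sign where the interval included 0 are among the 802 and the 173. The 5 do not include *Cd74*, of which both signs turned without the mixed barcodes. Few UMIs limit single genes, above all in the 16 *Disc1* LI/LI members, where 50 CPM is 4.74 UMIs.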

Other observations

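Some of the higher genes and rule genes lie close together on a chromosome (GENCODE M21, mm10). How often this holds over all higher genes or all measured genes was not counted. *Ifit2*, *Ifit3*, *Ifit3b* and *Ifit1* lie on chromosome 19 between 34550694 and 34650009, and *Ifi213*, *Ifi209*, *Ifi207*, *Ifi204* and *Ifi203* on chromosome 1 between 173566283 and 173942672. *Trim12a*, *Trim12c*, *Trim30c*, *Trim30a* and *Trim30d* lie on chromosome 7 between 104299894 and 104507849, and *Slfn5*, *Slfn8* and *Slfn2* on chromosome 11 between 82951349 and 83070678. *Parp14*, *Dtx3l* and *Parp9* lie on chromosome 16 between 35832874 and 35972605. Without the mixed barcodes *Ifi203* and *Trim12a* no longer passed or were no longer measured. Reads of near copies within the Ifit, Ifi200, Trim30 and Slfn families can be shared between genes, so the value of a single family member is uncertain.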
